A study of Mus musculus with 8 samples.

Results

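The genes described here encode the proteins of the mitochondrial ribosome, in proliferating C2C12 cells, a mouse myoblast line. They were chosen by gene symbol: Mrpl or Mrps followed by a number and at most 1 letter a, b or c. Of 24573 genes in the table, 78 had such a symbol, 49 of them Mrpl and 29 of them Mrps. By the position of the protein in the mammalian mitoribosome, 51 belong to the large subunit and 26 to the small subunit, because Mrps30 and Mrps18a carry a small-subunit name but sit in the large subunit. Mrps36, the last of the 78, is now known as a component of the 2-oxoglutarate dehydrogenase complex and was kept because the rule selects it. Of the ribosomal members, 46 have a bacterial counterpart and 31 are specific to mitochondria.

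The mitochondrial ribosome translates the few mRNAs encoded by mitochondrial DNA, all of which specify core subunits of the oxidative phosphorylation complexes. Its RNAs come from the mitochondrial genome, whereas in mammals all of its proteins are encoded in the nucleus, made in the cytosol and imported. Its assembly therefore needs coordinated output of many nuclear genes, and muscle relies on it heavily because of its respiratory demand.

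The study lowered subunits of SWI/SNF chromatin remodelling complexes with lentiviral short hairpin RNAs (shRNAs) and puromycin selection. Brd9 is the bromodomain subunit that defines the noncanonical BAF complex, Baf250A (gene Arid1a) belongs to the canonical BAF complex, and Baf180 (gene Pbrm1) belongs to the PBAF complex. The groups were Brd9 knockdown (hairpin s39), Baf250A knockdown (s06), Baf180 knockdown (s81) and a scramble hairpin, with 2 libraries each and 8 in all. Every group, scramble included, was infected, selected and kept proliferating; 1 hairpin was used per target and 1 scramble line as control, so effects of the hairpin and of the target cannot be told apart. Nothing in the labels ties the 2 libraries of each group to different cultures; the p-values measure how far these libraries spread, and that spread may be technical.

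Libraries held 17763076 to 20400863 counts, and 14240 to 14810 genes were detected in 7 of them, against 16449 in scramble replicate 2. All 78 members were detected in every library and passed the low-count filter, so they are 78 of the 12420 genes tested. The targets were lower in their own knockdown: Brd9 had 7.61 and 7.07 counts per 1000000 (CPM, scaled by trimmed mean of M-values, TMM) in Brd9 libraries, against 40.3 and 36.8 in scramble. Arid1a had 67.1 and 64.2 CPM in Baf250A libraries, against 159 and 157 in scramble, and Pbrm1 had 3.77 and 4.69 CPM in Baf180 libraries, against 49.2 and 56.0 in scramble. The summed TPM (transcripts per 1000000, counts corrected for gene length) of 7 myoblast markers were 1080 and 1250 in Brd9, 713 and 594 in Baf250A, with 1 marker at 0, and 1740 and 1480 in Baf180, against 1020 and 1020 in scramble. Des gave much of that sum, with 1080 and 822 TPM in Baf180, against 575 and 569 TPM in scramble, and the markers did not share a direction: after Baf180 knockdown Myod1 was higher (log2 fold change 1.09, adjusted p = 0.00295), while Myf5 (-1.49, adjusted p = 0.00384) and Msc (-3.12, adjusted p = 0.000791) were lower. Marker lists of 6 other cell types summed to at most 3.90 TPM in any library. The part of these markers in the results below was not tested, and in bulk RNA fewer cells of a kind and less RNA per cell cannot be told apart.

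The members do not sit together: they lie on 17 chromosomes, with 11 on chromosome 11 and 8 on chromosome 17. RefSeq (GRCm38.p6) gave a promoter window, 250 bases before to 50 bases after the gene start, for 69 of the 78. The sequences below are the 120 bases before the start for the 3 called genes with the largest decrease after Brd9 knockdown (Mrps6, Mrps10, Mrps18b) and for genes called after Baf180 knockdown with and without offsets for GC content and length (Mrps22, Mrpl47, Mrpl18). Capitals mark a GC box (GGGCGG), an ETS core (CCGGAAG) or a CCAAT box (CCAAT), on either strand. For Mrps10 and Mrpl18 the start used in that table lies inside the full span of the gene.
Mrps6, chr16:92058216-92058335, plus strand: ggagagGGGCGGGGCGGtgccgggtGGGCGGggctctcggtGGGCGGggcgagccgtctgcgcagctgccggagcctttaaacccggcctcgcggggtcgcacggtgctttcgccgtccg
Mrps10, chr17:47369077-47369196, plus strand: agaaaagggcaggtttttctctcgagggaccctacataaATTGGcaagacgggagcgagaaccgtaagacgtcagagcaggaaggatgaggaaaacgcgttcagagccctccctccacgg
Mrps18b, chr17:35916441-35916560, minus strand: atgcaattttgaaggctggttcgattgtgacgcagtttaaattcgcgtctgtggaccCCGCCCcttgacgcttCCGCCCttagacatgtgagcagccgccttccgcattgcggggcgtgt
Mrps22, chr9:98601680-98601799, minus strand: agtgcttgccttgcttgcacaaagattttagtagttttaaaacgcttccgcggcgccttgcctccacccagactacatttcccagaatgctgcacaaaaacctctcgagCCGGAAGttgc
Mrpl47, chr3:32736756-32736875, minus strand: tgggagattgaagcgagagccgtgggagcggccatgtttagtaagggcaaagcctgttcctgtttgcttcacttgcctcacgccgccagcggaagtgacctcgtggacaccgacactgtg
Mrpl18, chr17:12916092-12916211, minus strand: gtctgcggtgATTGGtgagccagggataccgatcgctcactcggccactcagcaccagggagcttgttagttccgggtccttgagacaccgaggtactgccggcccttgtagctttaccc

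Across the 300-base windows, searched on both strands, the ETS core CCGGAAG stood in 24 of 69 member promoters (34.8%), against 18.8% of the promoters of tested genes and 9.14% of all promoters in the table. The YY1 core AAGATGGC stood in 12 members (17.4%), against 4.91% of tested genes and 2.87% of all. The NRF1 core GCGCATGC stood in 8 members (11.6%), against 5.59% of tested genes and 2.8% of all. GGGCGG was present in 34 members (49.3%), against 66.0% of tested genes and 35.9% of all, and CCAAT in 27 (39.1%), against 39.5% and 38.0%. TATAAA stood in 4 members (5.8%), against 6.74% and 14.2%, and the E-box CACGTG in 5 (7.25%), against 10.4% and 7.24%. The median GC content of the 250 bases before the start was 58.4% in members and 60.0% in tested genes. A match describes letters, not binding.

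Per length, the members were well expressed. Their mean TPM over the 8 libraries had a median of 81.3, against 17.0 for all tested genes, with 81.3 in the large and 73.6 in the small subunit. Mrpl12, the stalk protein that also binds the mitochondrial RNA polymerase, was highest at 366 TPM, followed by Mrpl20 at 318, a large-subunit protein with a bacterial counterpart, and by Mrpl52 at 316, a mitochondria-specific one. The lowest were Mrpl1, of the L1 stalk, at 9.82 TPM, Mrps14, a small-subunit protein, at 12.0 TPM and Mrpl35, a large-subunit protein, at 12.2 TPM.

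Summed over the 78 genes, Brd9 knockdown was below scramble on every scale used. The sum was 6842 and 7214 TPM in Brd9, 8104 and 7840 TPM in Baf250A and 7373 and 6655 TPM in Baf180, against 7610 and 7697 TPM in scramble. On the TMM scale it was 3025 and 3528 CPM in Brd9, 4106 and 3808 CPM in Baf250A and 4665 and 3583 CPM in Baf180, against 4358 and 4350 CPM in scramble. Baf250A therefore lay above scramble in TPM and below it in CPM, and the Baf180 libraries lay on either side of scramble in CPM but both below it in TPM. These sums are descriptions without a test, and the plot of summed levels shows them on all 3 scales.

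**Figure D1:**
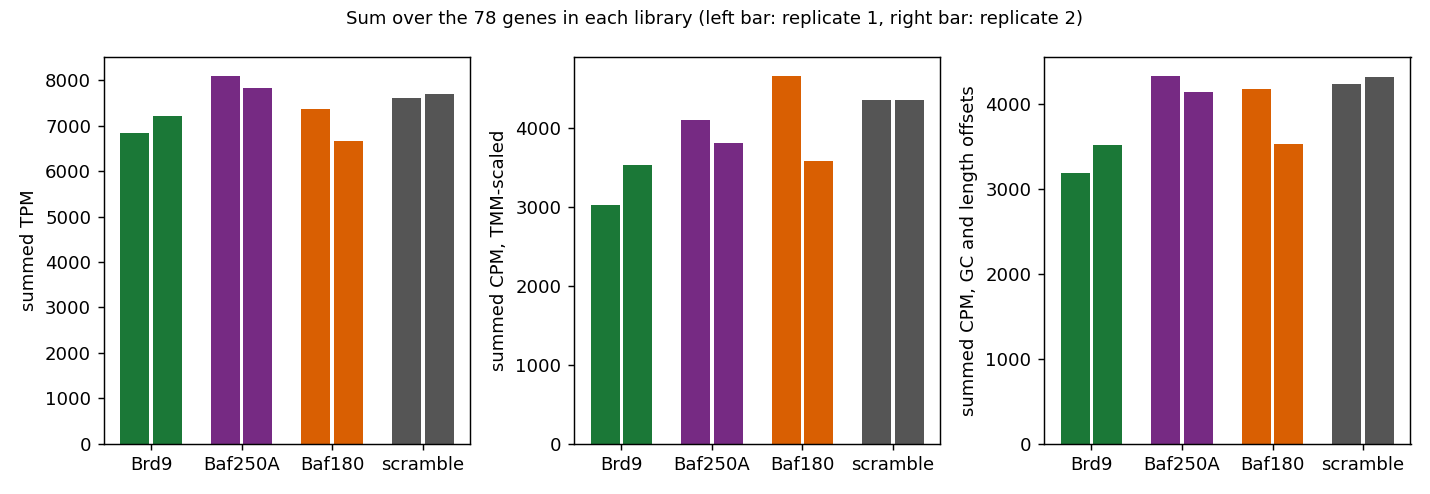
Sum over the 78 genes in each library as TPM (left), TMM-scaled CPM (middle) and CPM with GC and length offsets (right); each bar is 1 library. The 2 Brd9 bars stay below both scramble bars in all panels, while the 2 Baf180 bars differ from each other, at 4665 and 3583 TMM-scaled CPM.

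After Brd9 knockdown, 7 mitoribosomal genes were lower and 0 higher, and most of the others lay below scramble without passing the test. The test was edgeR's quasi-likelihood test with Benjamini-Hochberg adjustment over all genes tested, and a gene is called at an adjusted p below 0.05. Those 7 of 78 compare with 3.57% of all tested genes called lower, and the 0 called higher with 6.45%. DESeq2 and limma-voom also called 0 higher. At an unadjusted p below 0.05 there were 0 higher and 30 lower, against 2073 and 1696 of 12420 tested genes. Beyond the called genes, the direction was shared: 69 of 78 had a log2 fold change below 0, with a median of -0.36 (quartiles -0.49 and -0.17), against a median of 0.04 over all tested genes. In 61 of 78 both Brd9 libraries were below both scramble libraries, against 31.2% of all tested genes; in 7 both were above, against 33.8%.

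Of the called genes, 4 of 26 were in the small subunit and 3 of 51 in the large; the difference between subunits was not tested. Mrps6, a small-subunit protein with a bacterial counterpart, had 60.9 and 70.0 CPM in Brd9 libraries, against 120 and 118 CPM in scramble. It was 1.81-fold lower (log2 fold change -0.86, SE 0.15, adjusted p = 0.00761 by edgeR's quasi-likelihood test). Both of its Brd9 values lay far below both scramble values, but its counts are uncertain: it shares 159 exon bases on the same strand with Slc5a3, an inositol transporter gene, which had a log2 fold change of 0.00 here (adjusted p = 0.994; with offsets -0.52, adjusted p = 0.00906). With offsets the log2 fold change of Mrps6 was -0.70 (adjusted p = 0.000207).

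Mrps10, another small-subunit protein with a bacterial counterpart, had 29.6 and 34.9 CPM in Brd9, against 53.5 and 56.1 CPM in scramble, 1.7-fold lower (log2 fold change -0.76, SE 0.15, adjusted p = 0.0162). Mrps5 had 46.2 and 50.7 CPM in Brd9, against 76.3 and 73.1 CPM in scramble, a log2 fold change of -0.62 (SE 0.13, adjusted p = 0.0194). Mrps18b, 1 of 3 relatives of bacterial S18, had 67.3 and 78.2 CPM in Brd9, against 122 and 120 CPM in scramble, a log2 fold change of -0.74 (SE 0.17, adjusted p = 0.0256). None of these 3 genes had overlapping library values between the groups, and none shares exon bases with another gene of the table.

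In the large subunit, the mitochondria-specific Mrpl49 had 43.6 and 48.2 CPM in Brd9, against 71.5 and 67.7 CPM in scramble (log2 fold change -0.60, adjusted p = 0.0237); it shares 91 exon bases on the opposite strand with Syvn1. Mrpl40, also mitochondria-specific, had 43.6 and 51.7 CPM in Brd9, against 69.7 and 67.8 CPM in scramble (-0.53, adjusted p = 0.0385). Mrpl11, of the L11 stalk base and named after its values were seen, had 36.2 and 39.6 CPM in Brd9, against 55.7 and 60.7 CPM in scramble (-0.62, adjusted p = 0.049). The most negative log2 fold change did not pass the test without offsets: Mrpl12 had 102 and 137 CPM in Brd9, against 219 and 239 CPM in scramble, with a log2 fold change of -0.94, SE 0.28 and adjusted p = 0.063; with offsets it was called (-0.76, adjusted p = 0.00517). Mrpl32, whose precursor is cleaved in the matrix before it joins the ribosome, had the largest positive value, 0.39 (adjusted p = 0.291).

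The calls rest on few libraries. The 7 calls were lost when either scramble library or Brd9 replicate 1 was left out, which leaves 1 group with a single library. Far fewer of all tested genes were called lower in those fits as well. The member median was -0.24 without Brd9 replicate 1. With GC and length offsets, 30 members were lower and 0 higher, against 18.6% and 11.5% of all tested genes, all 7 remained called, and the median was -0.33, against -0.07 over all tested genes.

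**Figure D2:**
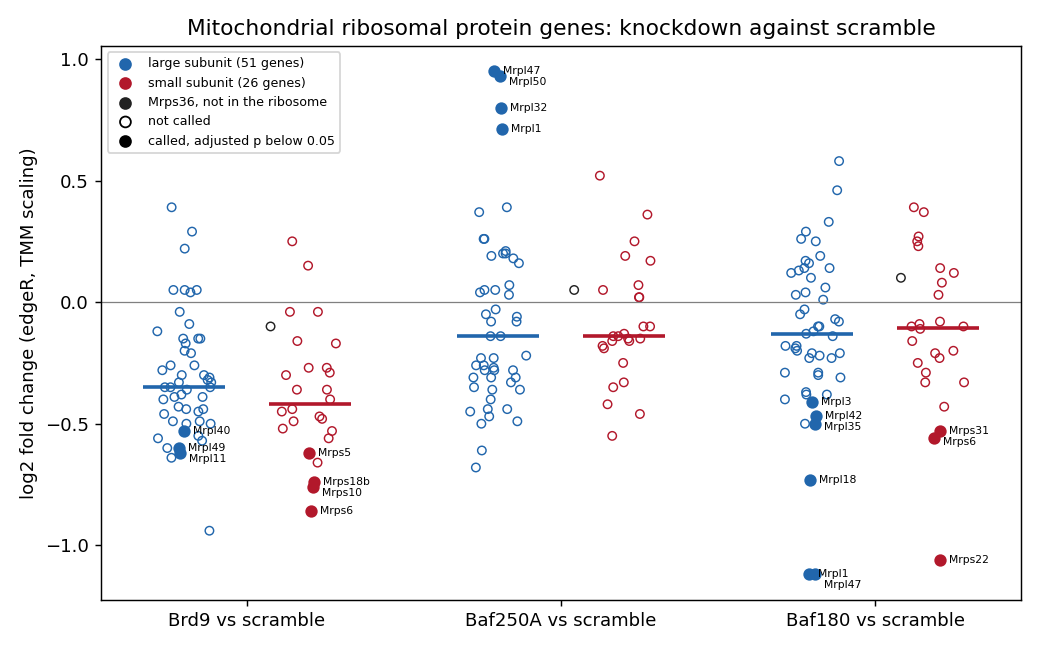
log2 fold change of the 78 genes in each knockdown against scramble (edgeR, TMM scaling); 1 point per gene, coloured by subunit, filled where the adjusted p was below 0.05, with a bar at the subunit median. Most points of the Brd9 comparison lie below 0, with medians of -0.35 in the large and -0.42 in the small subunit, while the other comparisons spread around 0.

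After Baf250A knockdown, 4 large-subunit genes were higher and 0 members lower. The 4 of 78 compare with 15.5% of all tested genes called higher, and the 0 lower with 14.0%. DESeq2 and limma-voom called 0 lower too. At an unadjusted p below 0.05 there were 7 higher and 10 lower, against 2881 and 2642 of 12420 tested genes. The member median was -0.14, against -0.02 over all tested genes. Both Baf250A libraries were above both scramble libraries in 19 members and below in 43, against 36.3% and 39.5% of all tested genes.

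Mrpl47, a large-subunit protein with a bacterial counterpart, had 17.8 and 23.5 CPM in Baf250A, against 11.1 and 10.3 CPM in scramble. It was 1.93-fold higher (log2 fold change 0.95, SE 0.28, adjusted p = 0.0304). Its exons overlap those of Ndufb5, a respiratory complex I subunit gene, and Actl6a, itself a BAF subunit gene, on the opposite strand, and with no statement on stranded counting its level is uncertain; Ndufb5 had a log2 fold change of 0.26 (adjusted p = 0.13) and Actl6a -0.23 (adjusted p = 0.154).

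The other 3 calls were lost with GC and length offsets. Mrpl50, mitochondria-specific, had 25.1 and 33.9 CPM in Baf250A, against 16.2 and 14.7 CPM in scramble (log2 fold change 0.93, adjusted p = 0.0258; with offsets 0.32, adjusted p = 0.0853). Mrpl32 had 27.4 and 32.7 CPM in Baf250A, against 19.3 and 15.3 CPM in scramble (0.80, adjusted p = 0.0328; with offsets 0.18, adjusted p = 0.432). Mrpl1 had 16.1 and 21.4 CPM in Baf250A, against 12.3 and 10.6 CPM in scramble (0.71, adjusted p = 0.0487), and with offsets its sign turned to -0.14 (adjusted p = 0.579). In none of the 4 did the groups overlap, and Baf250A replicate 2 was the higher library each time.

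With offsets, 5 members were called higher and 2 lower after Baf250A knockdown, against 17.7% and 17.3% of all tested genes. Mrpl28, a large-subunit protein with a bacterial counterpart, had the largest negative value without them, -0.68 (adjusted p = 0.0964), from 95.2 and 71.7 CPM in Baf250A, against 126 and 140 CPM in scramble. The higher calls without offsets were lost when scramble replicate 1, scramble replicate 2 or Baf250A replicate 2 was left out. Fewer of all tested genes were called higher in those fits as well. Some members were called lower without Baf180 replicate 1 or Baf180 replicate 2, where more of all tested genes were called lower too. Those libraries belong to neither group, and leaving them out changed the genes that passed the filter as well as the joint fit; the cause was not tested.

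After Baf180 knockdown, 9 genes were lower, 6 of 51 in the large and 3 of 26 in the small subunit, and 0 higher. The 9 of 78 compare with 17.0% of all tested genes called lower and the 0 with 17.2% called higher. DESeq2 and limma-voom called 0 higher as well. At an unadjusted p below 0.05 there were 1 higher and 17 lower, against 2858 and 2962 of 12420 tested genes. The median was -0.11, against -0.02 over all tested genes. Both Baf180 libraries were below both scramble libraries in 29 members and above in 7, against 37.1% and 35.0% of all tested genes.

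Mrps22, a mitochondria-specific small-subunit protein, had 7.77 and 11.8 CPM in Baf180, against 22.2 and 18.6 CPM in scramble, 2.08-fold lower (log2 fold change -1.06, SE 0.22, adjusted p = 0.00823). Mrpl47 had 3.88 and 5.89 CPM in Baf180, against 11.1 and 10.3 CPM in scramble (-1.12, SE 0.29, adjusted p = 0.0184). Mrpl18, a large-subunit protein of the central protuberance, had 27.9 and 36.4 CPM in Baf180, against 56.4 and 50.3 CPM in scramble (-0.73, SE 0.16, adjusted p = 0.0102). These 3 remained called with offsets, at -0.69, -0.70 and -0.69. They were not called with scramble replicate 1 or Baf180 replicate 1 left out, though their log2 fold changes stayed below 0 in all 18 alternatives. Of the genes opposite Mrpl47, Ndufb5 had a log2 fold change of -0.04 (adjusted p = 0.823) and Actl6a -0.29 (adjusted p = 0.0755). Mrpl18 shares 141 exon bases on the opposite strand with Tcp1, a cytosolic chaperonin subunit gene, which had a log2 fold change of -0.47 (adjusted p = 0.019; with offsets -0.24, adjusted p = 0.144, no longer called).

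Mrps6 was lower after Baf180 knockdown too, in a comparison with the same scramble libraries as the Brd9 one. It had 87.7 and 73.0 CPM in Baf180, against 120 and 118 CPM in scramble (-0.56, SE 0.15, adjusted p = 0.0176; with offsets -0.83, adjusted p = 3.97e-05). Its same-strand neighbour Slc5a3 had 6.78 and 8.51 CPM in Baf180, against 23.9 and 37.3 CPM in scramble (-2.00, adjusted p = 0.00286); how many reads of the shared exon were given to each gene was not tested.

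The other 5 calls after Baf180 knockdown were lost with offsets. Mrpl1 had 4.12 and 6.38 CPM in Baf180, against 12.3 and 10.6 CPM in scramble (-1.12, adjusted p = 0.0101; with offsets -0.42, adjusted p = 0.122). Mrpl42, a mitochondria-specific large-subunit protein, had 54.3 and 53.1 CPM in Baf180, against 79.9 and 69.0 CPM in scramble (-0.47, adjusted p = 0.0303). Mrpl3, near the peptidyl transferase centre, had 46.6 and 47.3 CPM in Baf180, against 61.9 and 62.9 CPM in scramble (-0.41, adjusted p = 0.0326). Mrps31 stood at -0.53 (adjusted p = 0.0437) and Mrpl35 at -0.50 (adjusted p = 0.0422), the second of which turned to 0.07 with offsets.

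The Baf180 libraries were uneven for this gene group. Mrpl12 had 256 CPM in Baf180 replicate 1 and 135 CPM in replicate 2, the widest gap of any member in that group (0.92 on the log2 scale), on either side of the 219 and 239 CPM in scramble. The member median was -0.25 without Baf180 replicate 1 and 0.03 without replicate 2. With either scramble library or Baf180 replicate 1 left out, fewer members and fewer of all tested genes were called lower. With Baf180 replicate 2 left out, more members and more of all tested genes were called higher. Each of these fits left 1 group with a single library. Mrpl14, which lies at the subunit interface, had the largest positive value, 0.58 (adjusted p = 0.0965), from 129 and 72.3 CPM in Baf180, against 67.5 and 67.6 CPM in scramble.

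**Figure D3:**
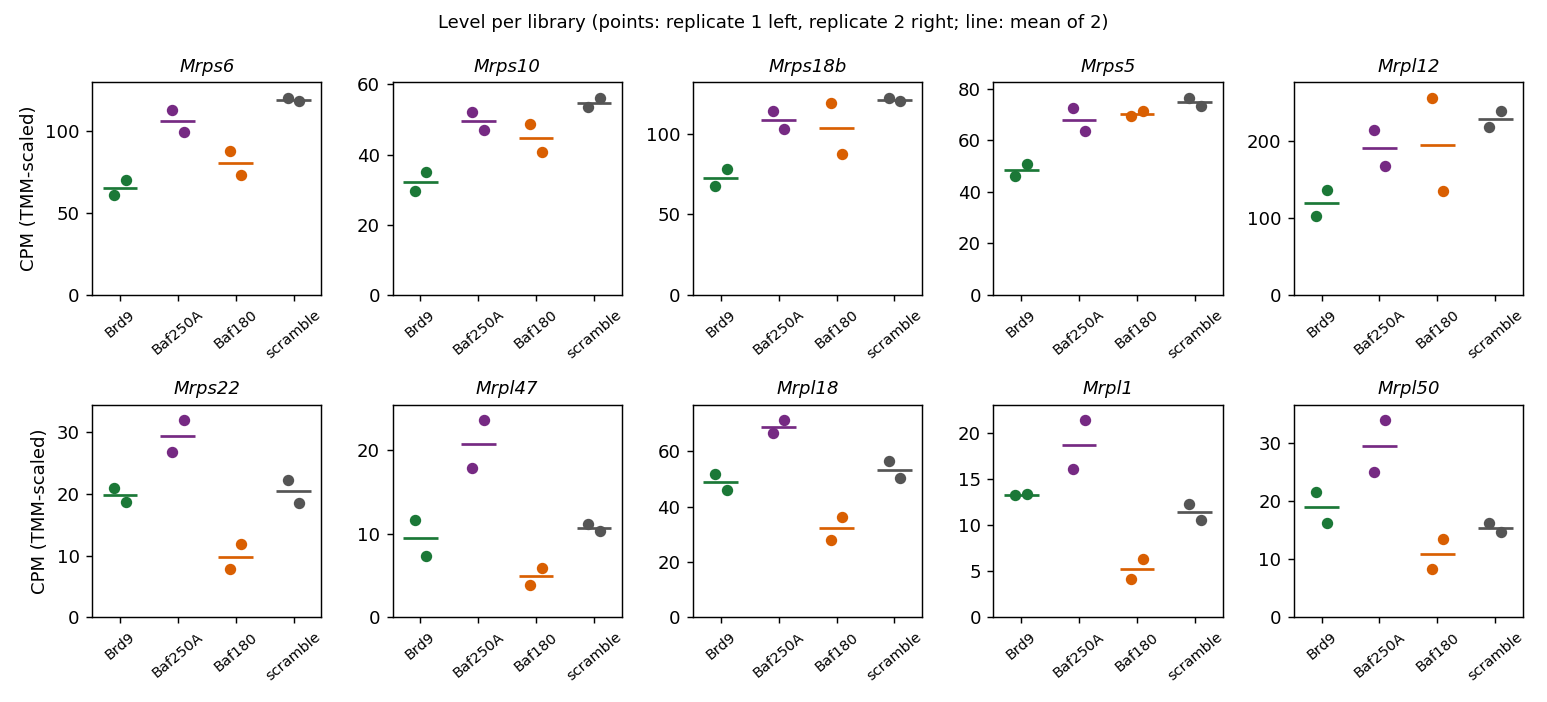
TMM-scaled CPM of 10 members in each library; points are libraries and lines the mean of 2. Mrps6, Mrps10, Mrps18b and Mrps5 are lowest in the 2 Brd9 libraries, and Mrps22, Mrpl47, Mrpl18, Mrpl1 and Mrpl50 are highest in the 2 Baf250A and lowest in the 2 Baf180 libraries.

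The log2 fold change of a member, sign included, moved with the GC content of its transcript. Members ranged from 39.6% to 60.6% GC, with a median of 50.9%, against 50.5% for all tested genes, and were shorter, with a median of 1054 bases, against 2865. Across the 78 genes, Spearman's rho between GC content and log2 fold change was -0.44 after Brd9, -0.62 after Baf250A and 0.42 after Baf180 knockdown, and over 12290 tested genes it was -0.30, -0.53 and 0.59. These are descriptions across genes that share their libraries, and genes are not independent replicates.

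The members were split into 3 classes of 26 from low to high GC. In that order, the class medians after Brd9 knockdown were -0.19, -0.41 and -0.44, those after Baf250A knockdown were 0.06, -0.24 and -0.29, and those after Baf180 knockdown were -0.21, -0.16 and 0.05. The 4 genes called after Baf250A knockdown and 7 of the 9 called after Baf180 knockdown were in the lowest class, against 1 of 7 after Brd9 knockdown. The share of all tested genes called in the same GC range was not computed, so these counts are not a result about the members. A fit with smooth offsets for GC content and length in each library gave class medians of -0.31, -0.36 and -0.28 after Brd9 knockdown, -0.17, -0.08 and 0.09 after Baf250A knockdown, and 0.12, -0.17 and -0.31 after Baf180 knockdown. The Brd9 medians were thus below 0 in every class under both fits, while those of Baf250A and Baf180 changed their order. With offsets, rho among members was 0.06, 0.35 and -0.56, although it was between -0.01 and 0.02 over all tested genes. With transcript length, rho among members was -0.10, 0.12 and -0.12 without offsets and -0.53, -0.39 and 0.23 with them. Over all tested genes it was 0.27, 0.20 and -0.14 without offsets and 0.02, 0.01 and -0.01 with them. Among members the offset values therefore moved more with length than the values without offsets did, those of Brd9 included. For Baf180 the offset fit called 25 members lower and 4 higher, against 20.0% and 17.8% of all tested genes. Mrps14, the member of lowest GC, was called there at 1.21 (adjusted p = 0.0026), against 0.39 (adjusted p = 0.114) without offsets, from 14.4 and 12.9 CPM in Baf180, against 11.1 and 9.71 CPM in scramble. 

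**Figure D4:**
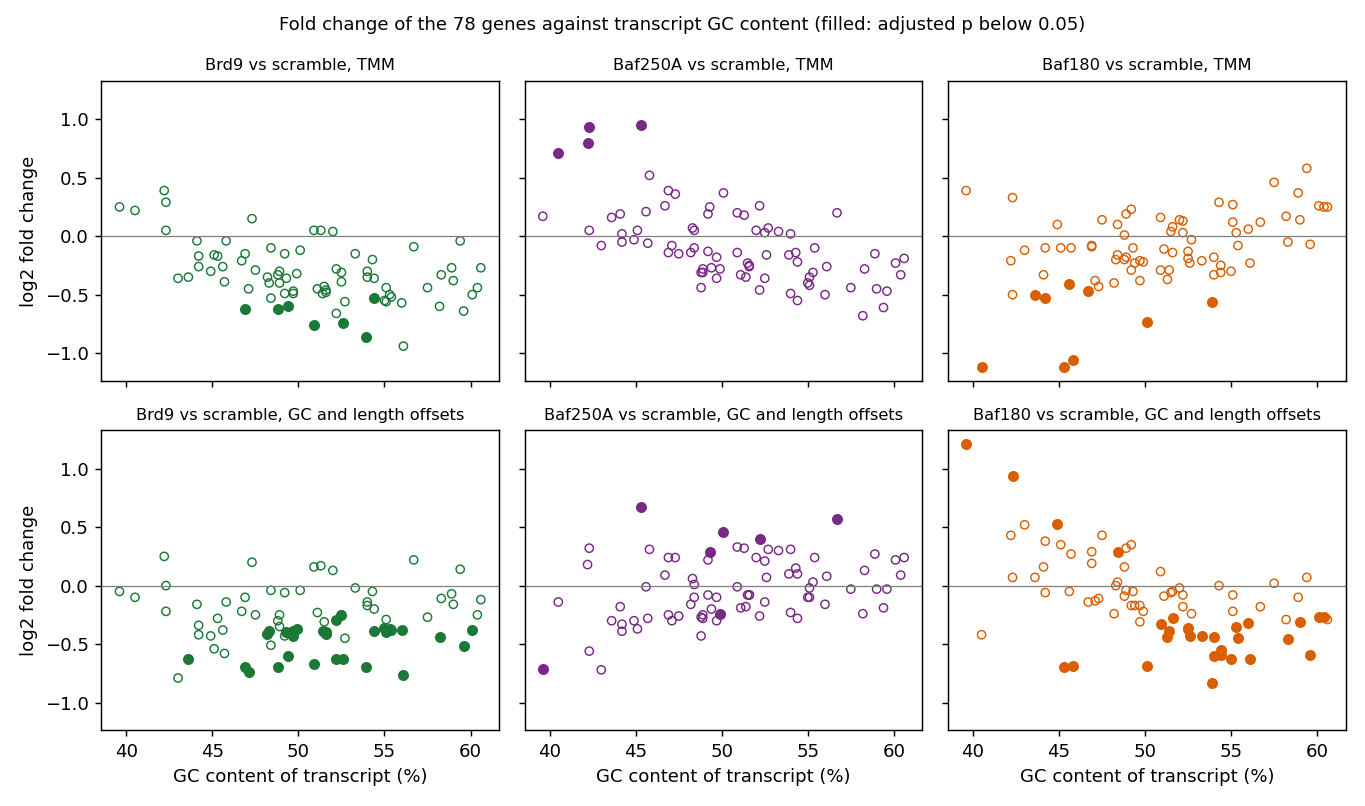
log2 fold change against transcript GC content (percent) for the 78 genes, in the TMM fit (top) and the fit with GC and length offsets (bottom), for each knockdown against scramble; filled points had an adjusted p below 0.05. In the top row the slope is downward for Brd9 and Baf250A and upward for Baf180, and in the bottom row only the Brd9 points stay mostly below 0 along the whole GC range.

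Compared directly, Baf250A knockdown was above Brd9 knockdown in 12 members and below in 0, against 10.0% and 15.0% of all tested genes, with a median of 0.21, against 0.00. DESeq2 and limma-voom called 0 lower as well. At an unadjusted p below 0.05 there were 23 higher and 1 lower, against 2167 and 2604 of 12420 tested genes. With offsets 11 of the 12 remained called, and 32 members were higher and 2 lower, against 25.9% and 18.5%. Mrps6 had 113 and 99.1 CPM in Baf250A, against 60.9 and 70.0 CPM in Brd9 (log2 fold change 0.70, SE 0.15, adjusted p = 0.00908). Its same-strand neighbour Slc5a3 had a log2 fold change of 0.84 (adjusted p = 0.0685), and 0.45 with offsets (adjusted p = 0.01). The split of reads in the exon they share was not tested. Mrps2, a small-subunit protein with a bacterial counterpart, had 78.7 and 78.5 CPM in Baf250A, against 49.0 and 53.9 CPM in Brd9 (0.61, SE 0.13, adjusted p = 0.00859; with offsets 0.70).

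Between Baf250A and Baf180 knockdown, 17 members were higher and 9 lower in Baf250A, against 30.8% and 31.7% of all tested genes. Mrpl47 differed most: 17.8 and 23.5 CPM in Baf250A, against 3.88 and 5.89 CPM in Baf180, 4.21-fold (log2 fold change 2.07, SE 0.29, adjusted p = 0.000423; with offsets 1.38, adjusted p = 0.000217). Mrps22 was 3.0-fold higher (1.58, adjusted p = 0.000428; with offsets 1.00) and Mrpl18 2.14-fold higher (1.10, adjusted p = 0.000531; with offsets 1.16). Mrpl1 was also higher (1.84, adjusted p = 0.000354), but its value with offsets was 0.28 (adjusted p = 0.244). With offsets 29 were higher and 11 lower, against 28.6% and 26.3%; only 10 of the 26 calls remained, and 8 of the 26 changed sign. Between Brd9 and Baf180 knockdown, 7 members were higher and 20 lower in Brd9, against 26.3% and 23.3%, with a median of -0.26. With offsets 6 were higher and 23 lower, against 13.7% and 19.4%, and 11 of the 27 calls remained.

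The 3 relatives of bacterial S18 are given side by side; differences between them were not tested. Mrps18b, of the small subunit, was called after Brd9 knockdown as given above, and with offsets also after Baf180 knockdown (log2 fold change -0.43, adjusted p = 0.00554). Mrps18a, of the large subunit, had 49.8 and 61.2 CPM in Brd9, 64.7 and 51.6 CPM in Baf250A and 106 and 66.5 CPM in Baf180, against 80.9 and 83.9 CPM in scramble, and without offsets was called in no comparison with scramble (-0.57, adjusted p = 0.122, for Brd9). With offsets it was called lower after Brd9 knockdown (-0.38, adjusted p = 0.0226) and after Baf180 knockdown (-0.32, adjusted p = 0.0349). Mrps18c, of the small subunit, had 15.6 and 16.7 CPM in Brd9, 17.1 and 20.1 CPM in Baf250A and 9.85 and 11.7 CPM in Baf180, against 14.3 and 14.7 CPM in scramble, with a log2 fold change of 0.15 (adjusted p = 0.586) for Brd9.

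Of the other gene lists of the pathway, that of translation factors also holds Slirp and Lrpprc, which stabilise mitochondrial mRNAs. All lists were read against the same shares of all tested genes as the members. After Brd9 knockdown those were 3.57% lower and 6.45% higher, and 18.6% and 11.5% with offsets. Among 5 tested mitoribosomal proteins under other symbols, 15 translation factors, 25 assembly factors, 17 mitochondrial aminoacyl-tRNA synthetases and 12 genes of mitochondrial DNA transcription and maintenance, edgeR called 0 in either direction; their medians were -0.21, -0.03, -0.19, -0.19 and 0.08. At an unadjusted p below 0.05 these 74 genes had 5 higher and 11 lower, against 2073 and 1696 of 12420 tested genes. DESeq2 called 0 higher and 6 lower, against 942 and 845, and limma-voom 0 in either direction, against 765 and 444. With offsets these lists had 2, 5, 5, 8 and 2 lower, and 0, 1, 0, 0 and 2 higher. Of 11 regulators of nuclear genes for mitochondrial proteins, 2 fell and 0 rose, and with offsets 5 were lower and 0 higher. The 2 were Pprc1, a coactivator related to PGC-1alpha (-0.77, SE 0.16, adjusted p = 0.0168; with offsets -0.85), and Nrf1, which activates many such genes (-0.51, SE 0.13, adjusted p = 0.0434; with offsets -0.55).

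After Baf250A knockdown, Ptcd3, a small-subunit protein, rose (0.78, adjusted p = 0.0187) but not with offsets (0.24, adjusted p = 0.07). Of the translation factors 3 rose and 1 fell, among them Slirp, which stabilises mitochondrial mRNAs with Lrpprc (1.02, adjusted p = 0.0092; with offsets 0.55, adjusted p = 0.0166), and Guf1, a back-translocating elongation factor (1.37, adjusted p = 0.0189; with offsets 0.77, adjusted p = 0.00931). Assembly factors had 2 higher and 1 lower, synthetases 1 and 1, DNA genes 1 and 0, and regulators 2 and 0, including Gabpa, the ETS subunit of GABP (1.07, adjusted p = 0.0119; with offsets 0.25, adjusted p = 0.11). With offsets the translation factors had 3 higher and 2 lower, assembly factors 3 and 1, synthetases 2 and 3, DNA genes 1 and 0, and regulators 2 and 0. These counts stand against 15.5% higher and 14.0% lower over all tested genes, and 17.7% and 17.3% with offsets.

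After Baf180 knockdown, Ptcd3 fell (-1.09, adjusted p = 0.00502; with offsets -0.57), and translation factors had 0 higher and 3 lower, led by Lrpprc (-0.93, adjusted p = 0.0029; with offsets -0.66) and Gfm1, an elongation factor (-0.48, adjusted p = 0.0171; with offsets -0.19, adjusted p = 0.212). Assembly factors had 2 higher and 1 lower, synthetases 1 and 1, DNA genes 0 and 2, with Tfam, which packages mitochondrial DNA, at -0.66 (adjusted p = 0.0479; with offsets -0.22, adjusted p = 0.164), and regulators 2 and 2, with Yy1 at -0.76 (adjusted p = 0.0287; with offsets -0.84) and Gabpa at -0.81 (adjusted p = 0.0317; with offsets -0.12, adjusted p = 0.463). With offsets the translation factors had 1 higher and 5 lower, assembly factors 1 and 4, synthetases 2 and 2, DNA genes 0 and 1, and regulators 0 and 4. These counts stand against 17.2% higher and 17.0% lower over all tested genes, and 17.8% and 20.0% with offsets.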

How the data were processed

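Total RNA was sequenced on BGISEQ-500. The deposited table holds the authors' expected counts per gene (unit: estimated counts, not normalized) with gene length in bases beside them; 12 of the 78 members had a count that was not whole in some library. Build mm10 and the tools RSEM, Bowtie2, HISAT2, StringTie, Cufflinks and DESeq2 are listed, per the submitters' processing notes, without roles or versions; strandedness was not given in those sources.

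Expected counts were rounded and tested with edgeR 4.0.16 (R 4.3.3; filterByExpr, TMM, quasi-likelihood, 1 model over all 8 libraries by group; Benjamini-Hochberg within each of 6 comparisons; 12420 genes). Standard errors were |log2 fold change|/√F. TPM was counts over length, scaled to 1000000. Offsets were loess curves (span 0.3) of GC content and length per library. The procedure was run on simulated counts without a GC or length trend between libraries. That run could not check how well the offsets remove such trends. IDs gave symbols for 24479 rows by gene ID and 9 by accession; 85 did not match. Alternatives were DESeq2 1.42.0, voom in limma 3.58.1, upper-quartile or RLE scaling, no low-count filter, a minimum mean of 5 CPM, offsets, a replicate block, only the 4 libraries compared, and leaving out each library.

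Members and lists were chosen with earlier results of these data known. Genes were named by rule: per comparison with scramble, up to 6 called members of lowest p per direction and the largest value each way; the highest and lowest 3 by TPM; the Mrps18 relatives; members called in more than 1 knockdown or with opposite signs in a direct comparison, of which a few are given; the widest replicate gap per group; and up to 2 called genes per list, with a few more added after their values were seen. Exon overlaps are from GENCODE: 24 members share exon bases with another gene of the table, 21 on the opposite and 4 on the same strand.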

Additional observations from a re-analysis of the deposited data

How the results depend on the processing

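Counts of members called moved with several settings, as did counts over all tested genes, and the causes were not tested. Against scramble, members lower after Brd9 knockdown (7) were 18 with no low-count filter and 14 by DESeq2. They were 23 with only the 4 libraries compared and 30 with GC and length offsets. In that order, 1036 of 18092, 845 of 12420, 1064 of 12104 and 2309 of 12420 tested genes were called lower. Members lower after Baf250A knockdown (0) were 6 with no filter, 10 with only the 4 libraries and 2 with offsets. All tested genes gave 2124 of 18092, 2169 of 12067 and 2154 of 12420. After Baf180 knockdown, members higher (0) were 2 with no filter, 1 with only the 4 libraries and 4 with offsets. Members lower (9) were 25 with offsets. Over all tested genes, 2422 of 18092, 2367 of 11990 and 2214 of 12420 were higher, and 2484 of 12420 were lower with offsets. For Baf250A against Brd9, members higher (12) were 6 with only the 4 libraries and 32 with offsets. Members lower (0) were 1 with no filter and 2 with offsets. Among all tested genes, those higher were 1000 of 12185 and 3213 of 12420, and those lower 2063 of 18092 and 2298 of 12420. For Baf250A against Baf180, members higher (17) were 29 with offsets, and members lower (9) were 14 with no filter and 4 with only the 4 libraries. The all-gene counts were 3548 of 12420 higher, and 3968 of 18092 and 3263 of 12098 lower. For Brd9 against Baf180, members lower (20) were 8 with upper-quartile scaling, against 2149 of 12420 tested genes.

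Across genes, same-numbered deviations correlated weakly between the knockdowns and scramble, at -0.0509 to 0.105. Among the knockdowns they did share structure, at -0.424 and -0.435 between Brd9 and the other knockdowns, and 0.408 between Baf250A and Baf180. Whether the libraries of the knockdowns are paired was not tested, and the main direct comparisons used no replicate block. With a replicate block, members lower were 3 for Brd9 and 5 for Baf180 against scramble. Between knockdowns, members higher were 4 for Baf250A against Brd9, and members lower 5 for Baf250A against Baf180 and 9 for Brd9 against Baf180. Of 12420 tested genes, the same calls numbered 201, 1739, 896, 3630 and 2316, in that order. The block with offsets gave 25 lower for Brd9, 1 lower for Baf250A, and 2 higher and 22 lower for Baf180. It gave 29 higher and 1 lower for Baf250A against Brd9, and 27 higher for Baf250A against Baf180. Among the 12420 tested genes these calls were 1981, 1935, 2023, 2238, 2964, 2154 and 3358, in that order. A block with the Brd9 numbers crossed was chosen after seeing the data. That block gave 24 higher and 1 lower for Baf250A against Brd9 and 35 lower for Brd9 against Baf180. The all-gene counts there were 2434, 2632 and 3713 of 12420.

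Leaving out each library in turn, the number higher and the number lower ranged over 0 to 0 and 0 to 14 for Brd9, 0 to 5 and 0 to 4 for Baf250A and 0 to 4 and 0 to 7 for Baf180 against scramble. They ranged over 3 to 16 and 0 to 1 for Baf250A against Brd9, 13 to 17 and 1 to 20 for Baf250A against Baf180, and 1 to 9 and 0 to 35 for Brd9 against Baf180. A lone library was assumed to vary like the other groups. Calls over all tested genes also changed with the library left out. Some highest counts came from fits with 2 libraries in each compared group. There, against scramble, all tested genes gave 649 of 12726 lower for Brd9. They gave 2246 of 12689 higher and 1986 of 12722 lower for Baf250A, and 2025 of 12689 lower for Baf180. For Baf250A they gave 1407 higher and 1961 lower of 12722 against Brd9, and 3927 of 12689 higher against Baf180. The other highest counts above 0 left 1 group with a single library and are not compared. Without and with the block, offsets reversed Mrpl1 after Baf250A knockdown (-0.14 and -0.14) and Mrpl35 after Baf180 knockdown (0.07 and 0.06). The lowest count of any member was 67, for Mrpl47 in Baf180 replicate 1.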
